A study of Mus musculus with 6 samples.

Results

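The miR-30 family was examined as all entries of the RPM table named miR-30a to miR-30f, from either arm of their hairpins. RPM is the read count of a miRNA scaled to the same total of miRNA reads in every library. The family took 12 of the 1926 entries: 5 from 5p arms, 6 from 3p arms, and miR-30f, which is named without an arm. None of the 12 was a merged entry. The members were chosen by name, not by their values.

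The libraries were made from extracellular vesicles, the membrane-bound particles that cells release, taken from mouse brain tissue. The 6 libraries fall into 3 from mice that had undergone status epilepticus, a prolonged seizure (SE), and 3 from matched control mice (CON), at 24 hr by the title of the series. Strain, age, sex and the agent that induced the seizure are not given in the sources used here, and the labels leave it unsaid whether each library is from its own animals. The p-values therefore reflect the spread between these libraries, which may be technical. A lower level in vesicle RNA cannot be told apart from fewer vesicles of one source.

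A miRNA hairpin is cut into a short duplex whose strands come from its 5p and 3p arms. Usually one strand, the guide, is kept by an Argonaute protein and pairs with messenger RNAs through its seed, bases 2 to 8, while the other, the passenger, is lost. miR-30 miRNAs are broadly expressed, the brain included, and share the seed of their 5p arms. miR-30a-5p is known to act on the transcript of BDNF, a neurotrophic factor induced by seizures, and on that of the autophagy factor Beclin 1. The miR-30a hairpin is also the backbone of many vectors for RNA interference.

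RefSeq mature sequences (GRCm38.p6) were found for 8 of the 12 entries, the others being both arms of miR-30b and miR-30d. They are shown because the seeds divide these 8 by arm, with the seed in capitals. The 5p arms of miR-30a, miR-30c and miR-30e share one seed and their first 12 bases, and miR-384-5p, a miRNA of another name, has the same seed.
miR-30a-5p: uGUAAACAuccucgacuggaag
miR-30c-5p: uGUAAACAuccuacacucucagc
miR-30e-5p: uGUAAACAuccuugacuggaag
miR-384-5p: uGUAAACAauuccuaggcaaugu
The 3p arms with a sequence, 4 in all, fell into 2 other seeds, one shared by miR-30a-3p and miR-30e-3p and the other by both miR-30c hairpins.
miR-30a-3p: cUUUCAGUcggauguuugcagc
miR-30e-3p: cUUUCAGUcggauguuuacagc
miR-30c-1-3p: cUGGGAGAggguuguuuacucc
miR-30c-2-3p: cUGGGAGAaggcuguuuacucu
The seed of miR-30f is shifted by a base against that of the 5p arms.
miR-30f: gUAAACAUccgacugaaagcuc

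In the hairpin of miR-30a both mature arms, in capitals, lie on either side of the loop.
Mir30a hairpin, chr1:23272269-23272339, plus strand, GRCm38.p6: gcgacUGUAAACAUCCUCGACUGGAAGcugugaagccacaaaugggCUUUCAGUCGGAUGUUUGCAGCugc
miR-30a and miR-30e differ by a single base in either arm, C13U in the 5p arm and G18A in the 3p arm, counted from 1 at the 5′ end with the miR-30a base first. Not given in the sources used here is how the authors' counting treated mismatches, and so the split of reads between miR-30a and miR-30e is uncertain. miR-30c-1-3p and miR-30c-2-3p differ at 3 positions, G9A, U12C and C22U, with the base of miR-30c-1-3p first. miR-30c-5p is identical in both of its hairpins.

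By RefSeq positions on GRCm38.p6 the hairpins form 3 pairs. Mir30a and Mir30c-2 lie on chromosome 1 with 19361 bases between them, Mir30b and Mir30d on chromosome 15 with 3697 bases between them, and Mir30c-1 and Mir30e on chromosome 4 with 2983 bases between them. In the GENCODE vM21 annotation the chromosome 4 pair lies in an intron of Nfyc, a gene for a subunit of the CCAAT-binding factor NF-Y, on the same strand. Mir30c-2, Mir30b and Mir30d overlap exons of non-coding transcripts on their chromosomes. miR-30f is read from the opposite strand of the Mir30e locus, where its mature sequence (chr4:120772621-120772642) overlaps that of miR-30e-3p (chr4:120772618-120772639) over 19 bases.

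The libraries held 5482407 to 10845434 miRNA reads, so 1 read stood for 0.0922 to 0.182 RPM. In the RPM table the names went with the SE columns alone, and the CON rows were first put back under their names through the base means that the authors' deposited table of fold changes holds. Each of the 11 family members with reads had a single matching CON row, and every CON value below is given under its name as put back. Of the markers checked, 4 of 4 neuronal miRNAs were above 0, with a summed level of 22216 to 23943 RPM in SE and 23192 to 29554 RPM in CON libraries. The erythrocyte markers, of which 2 of 3 were above 0 and miR-144-3p was at 0, summed to 16.8 to 32.2 RPM in SE and 19.1 to 29.5 RPM in CON libraries. The hepatocyte miRNA miR-122-5p stood at 89.4 to 114 RPM in SE and 150.2 to 233 RPM in CON libraries, the muscle markers (3 of 3 above 0) at 208 to 222 and 234 to 311 RPM, and the myeloid markers (2 of 2 above 0) at 9.57 to 22.6 and 10.4 to 21.8 RPM. The endothelial miR-126a-3p stood at 3601 to 4285 RPM in SE and 3998 to 5346 RPM in CON libraries, and the choroid plexus miR-204-5p at 257 to 561 and 293 to 450 RPM. The part of these other cell types in the values below was not tested.

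The family was a small but well-counted share of the vesicle miRNAs. Its mean share of the miRNA reads was 0.760% ± 0.0710 over the 3 SE libraries and 0.881% ± 0.0714 over the 3 CON libraries (± SD here and below). Library by library, SE replicates 1, 2 and 3 gave 0.841%, 0.711% and 0.727%, while CON replicates 1, 2 and 3 gave 0.884%, 0.807% and 0.950%. Values of 3 libraries are listed in that order throughout. The groups overlapped, since SE replicate 1 lay above CON replicate 2. For comparison, the miR-26 family, other abundant brain miRNAs, took 1.36% to 1.85% of the reads, the miR-29 family 0.763% to 1.31% and the miR-181 family 0.0981% to 0.133% over the 6 libraries.

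Among the 5p arms, the guide strands by textbook usage, miR-30e-5p, miR-30a-5p and miR-30d-5p stood near each other and miR-30c-5p and miR-30b-5p well below. miR-30e-5p, the most abundant member, was at 1998, 1470 and 1490 RPM in SE and 1765, 1695 and 2258 RPM in CON libraries. Its groups overlapped, with SE replicate 1 above 2 of the CON libraries. miR-30a-5p, the member tied to BDNF, was at 1444, 1132 and 1313 RPM in SE and 1419, 1415 and 1860 RPM in CON libraries. miR-30d-5p was at 1577, 1003 and 1174 RPM in SE and 1058, 1440 and 1337 RPM in CON libraries. For these 3 miRNAs SE replicate 1, the most deeply sequenced library, was the highest SE library.

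The lesser 5p members varied most in the CON libraries. miR-30c-5p, the product of both miR-30c hairpins, was at 425, 472 and 374 RPM in SE and at 569, 320 and 354 RPM in CON libraries. miR-30b-5p was at 142, 211 and 177 RPM in SE and at 309, 148 and 172 RPM in CON libraries. CON replicate 1 was the highest library for both, and the other 2 CON libraries lay within or below the range of the SE libraries. The coefficient of variation of miR-30b-5p was 41.4% over the CON libraries, against 3.00% from read counting alone, and that of miR-30c-5p was 32.6% against 2.10%.

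**Figure D1:**
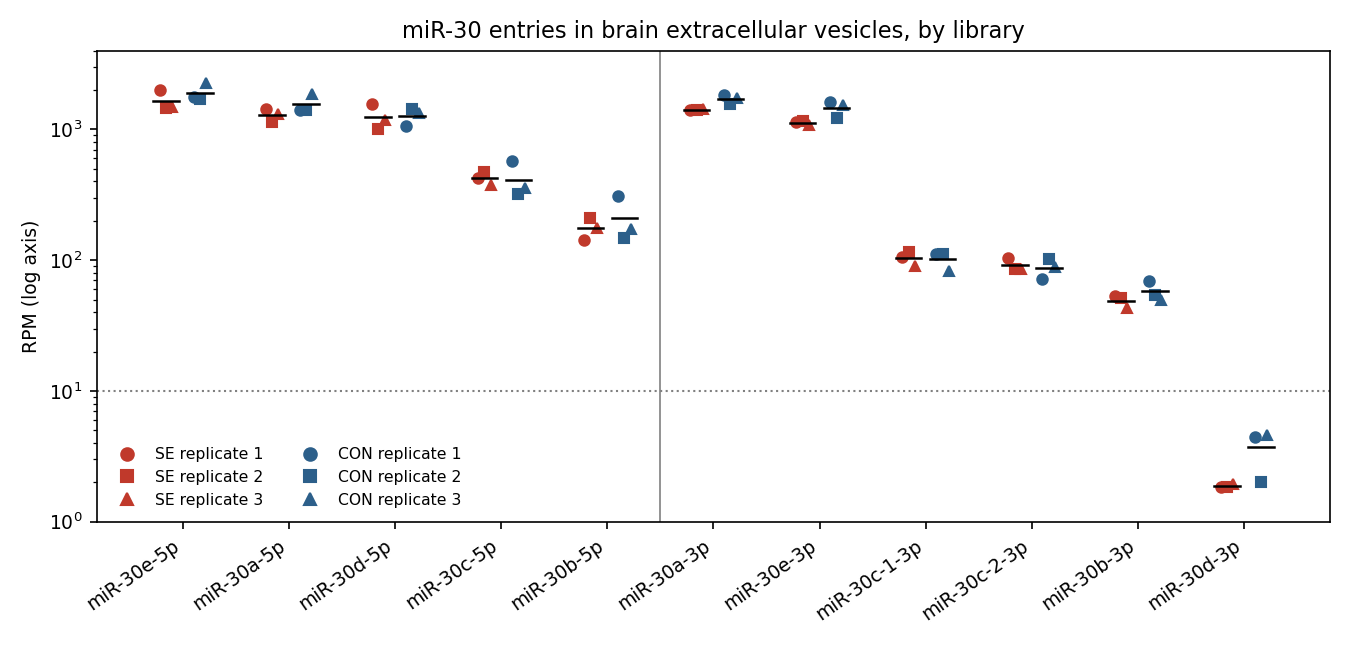
RPM of the 11 miR-30 entries with reads on a log axis, 5p arms left of the vertical line and 3p arms right of it. Points are single libraries, black bars group means, and the dotted line is the filter of 10 RPM used for testing. miR-30a-3p and miR-30e-3p reach the level of the leading 5p arms, while miR-30d-3p lies under 5 RPM in all 6 libraries.

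Ordered by mean level, miR-30e-5p was above miR-30a-5p in 6 of 6 libraries, by a median of 1.23 times, although their ranges over libraries overlapped. miR-30a-5p and miR-30d-5p did not separate: the first was higher in 4 of 6 libraries and the ratio ran from 0.916 to 1.39. miR-30d-5p was above miR-30c-5p in 6 of 6 libraries by a median of 3.42 times, and miR-30c-5p above miR-30b-5p in 6 of 6 by a median of 2.14 times, with ranges that did not overlap. Levels of different miRNAs also depend on how well each sequence is captured in the library, which was not tested.

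The members with the same 5p seed were joined by miR-384-5p. It stood at 109, 95.9 and 99.7 RPM in SE and 129, 89.4 and 111 RPM in CON libraries, which is less than any of the 5 miR-30 5p arms in every library. The 5p arms summed to 4801 ± 690.3 RPM over the SE libraries and to 5373 ± 530 RPM over the CON libraries (n = 3 each).

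The 3p arms, the passenger strands by textbook usage, spanned a wider range. miR-30a-3p was at 1420, 1407 and 1434 RPM in SE and 1827, 1570 and 1753 RPM in CON libraries, and was the second most abundant member by mean level. All 3 SE values lay below all 3 CON values. The coefficient of variation of miR-30a-3p over the SE libraries was 0.981%, next to 0.979% from read counting alone, against 7.69% over the CON libraries. It was the lowest SE value of any member with reads, and rests on 3 libraries. miR-30e-5p, at a similar level, had 18.1% over the SE libraries against 0.930% from read counting. miR-30e-3p was at 1139, 1161 and 1085 RPM in SE and 1636, 1218 and 1541 RPM in CON libraries, and again all SE values lay below all CON values. miR-30a-3p was above miR-30e-3p in 6 of 6 libraries by a median of 1.23 times.

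The other 3p arms stood well below these. miR-30e-3p stood above miR-30c-1-3p, the partner arm of its neighbour on chromosome 4, by a median of 11.5 times, from 9.99 to 18.8 times over the libraries. miR-30c-1-3p was at 106, 116 and 90.1 RPM in SE and 112, 111 and 82.1 RPM in CON libraries, and miR-30c-2-3p at 105, 85.1 and 85.0 RPM in SE and 72.2, 101 and 88.4 RPM in CON libraries. These near-identical arms did not separate, with the first higher in 5 of 6 libraries. miR-30b-3p was at 53.0, 51.0 and 43.3 RPM in SE and 69.7, 54.0 and 49.8 RPM in CON libraries, with groups that overlapped. Summed, the 3p arms took 0.282%, 0.282% and 0.274% of the reads in SE and 0.372%, 0.306% and 0.352% in CON libraries, and these groups did not overlap. Most of that sum is miR-30a-3p and miR-30e-3p.

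miR-30d-3p was the lowest member with reads. It had 20, 11 and 13 reads in the SE libraries, or 1.84, 1.83 and 1.94 RPM, and 25, 11 and 30 reads in the CON libraries, or 4.47, 2.01 and 4.61 RPM. Although all SE values lay below all CON values, CON replicate 2 lay close above them, and read counting alone gives a coefficient of variation of 26.9% over the SE libraries. miR-30f was listed at 0 in the SE columns and was absent from the authors' deposited table, and it was taken as 0 in all 6 libraries. With 3 reads as the limit that a count of 0 allows, it could be present at up to 0.277 to 0.547 RPM. Such limits allow for counting error alone. Because no library listed a value of fewer than 2 reads, a single read could also stand as 0.

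The arm ratio, 5p RPM over 3p RPM of one hairpin, divided the family into 3 ranges when taken pair by pair. For miR-30a it was 1.02, 0.805 and 0.915 in SE and 0.777, 0.901 and 1.06 in CON libraries, so that the 3p arm was the more abundant in 4 of 6 libraries. For miR-30e it was 1.75, 1.27 and 1.37 in SE and 1.08, 1.39 and 1.46 in CON libraries, with the 5p arm higher in all 6. Both arms of these hairpins thus stood at similar RPM. Arm ratios also depend on how well each arm is captured in the library, which was not tested. Since the split of reads between miR-30a and miR-30e is uncertain, the ratio was also taken from their sums, and it ran from 0.920 to 1.35 over the 6 libraries.

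Taken pair by pair, miR-30b and the miR-30c hairpins favoured the 5p arm by a few times. The ratio for miR-30b was 2.68, 4.14 and 4.07 in SE and 4.43, 2.75 and 3.45 in CON libraries. miR-30c-5p over miR-30c-1-3p gave 4.0, 4.06 and 4.15 in SE and 5.08, 2.87 and 4.31 in CON libraries. Over miR-30c-2-3p it gave 4.05, 5.54 and 4.40 in SE and 7.88, 3.15 and 4.01 in CON libraries. These last 2 ratios share miR-30c-5p and overstate each hairpin's own 5p share. Over the sum of both 3p arms the ratio was 1.5 to 3.09, a range that overlaps that of miR-30e. CON replicate 1, where miR-30c-5p was high and miR-30c-2-3p low, had the largest of the miR-30c values.

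miR-30d stood apart with ratios of 855, 549 and 604 in SE and 237, 717 and 290 in CON libraries. The denominators are 11 to 30 reads per library, so these values are imprecise, and the groups overlapped. Within a library the ratio of miR-30d was still 53.4 to 319 times that of miR-30b, its neighbour on chromosome 15.

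**Figure D2:**
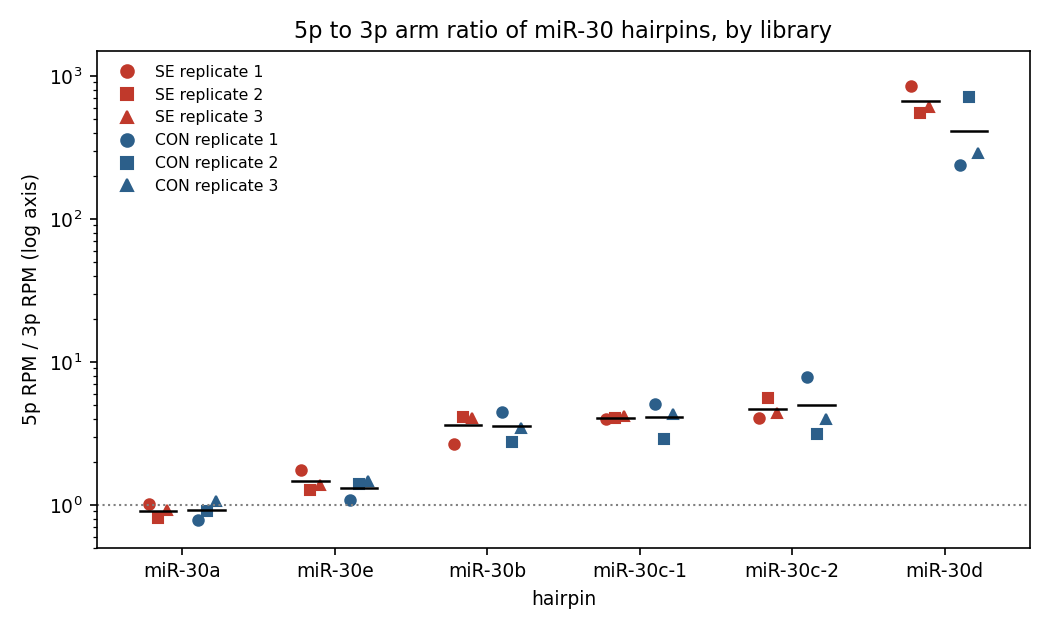
Ratio of 5p RPM to 3p RPM for the 6 miR-30 hairpins on a log axis. Points are single libraries, black bars group means, and the dotted line marks equal arms. miR-30a lies about the line, miR-30e above it in all 6 libraries, miR-30b and both miR-30c pairs between 2.68 and 7.88, and miR-30d between 237 and 855. Both miR-30c pairs share miR-30c-5p, which raises their ratios.

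How even the arms of miR-30a and miR-30e are depends on the hairpins they are set against. Over the 238 hairpins with at least 1 arm at a mean of 10 RPM or more, the mean log2 arm ratio, taken with 1 RPM added to each arm, was within 2-fold of equal in 12, or 5.04%, among them miR-30a and miR-30e. It was beyond 100-fold in 71, or 29.8%, among them miR-30d. Over the 64 hairpins with both arms at that level, to which miR-30a and miR-30e belong and miR-30d does not, 11 or 17.2% were within 2-fold, and as many were beyond 100-fold. Of the families set beside it, the 5p arm of miR-26a was 4938 to 15243 times the scarce 3p arm of its first hairpin, and miR-29a ran the other way, with a 5p to 3p ratio of 0.000142 to 0.000529. miR-181c, at 0.947 to 1.84, was also near equal. miR-181a-5p was at 6.60 to 9.85 times the 3p arm of its first hairpin. Against the scarce 3p arm of its second hairpin it was at 92.6 to 184. Members of one family therefore differed in arm ratio in the miR-181 family too, and no test was made of whether the miR-30 hairpins differ more.

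**Figure D3:**
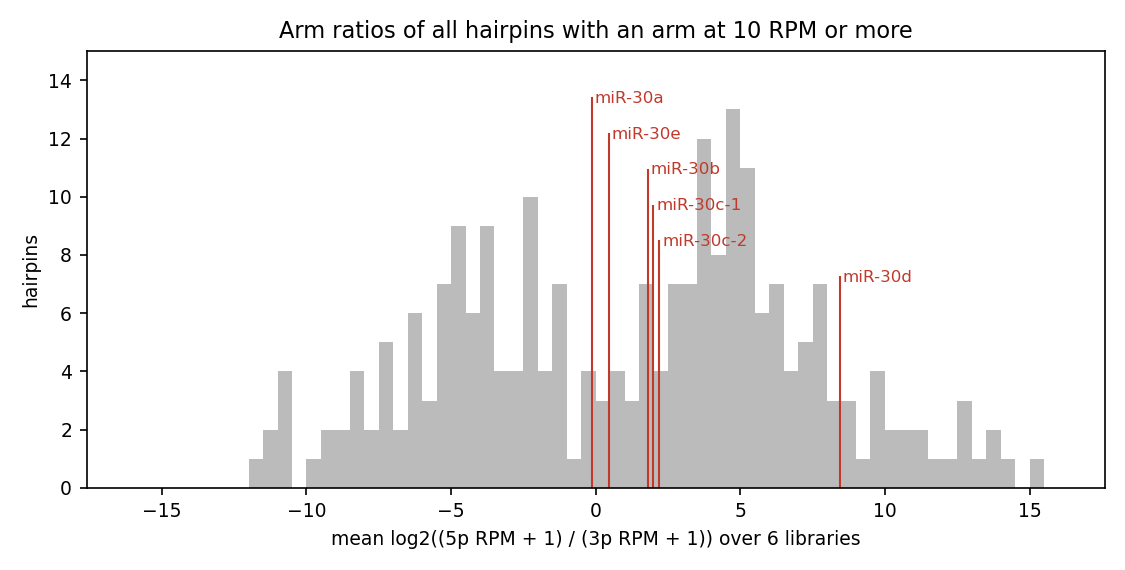
Histogram of the mean log2 arm ratio over 6 libraries, with 1 RPM added to each arm, for the 238 hairpins with an arm at 10 RPM or more. Red lines mark the 6 miR-30 hairpins: miR-30a and miR-30e lie in the sparse centre, and miR-30d to the right among hairpins with a nearly absent 3p arm. Hairpins that share an arm entry are counted each.

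Members that neighbour each other in the genome did not keep a fixed ratio. miR-30d-5p over miR-30b-5p ran from 3.42 in CON replicate 1 to 11.1 in SE replicate 1, and miR-30e-5p over miR-30c-5p, the latter also made from chromosome 1, from 3.10 to 6.38. For the chromosome 1 pair, miR-30a-5p over miR-30c-5p ran from 2.40 in SE replicate 2 to 5.25 in CON replicate 3. The library with the lowest ratio was CON replicate 1 for the first 2 ratios but not for the last, where it stood at 2.49.

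The comparison of SE with CON libraries asks whether vesicle levels of these miRNAs differ after status epilepticus. 0 of the 10 members with a mean of at least 10 RPM passed limma-trend on log2(RPM + 1) at a Benjamini-Hochberg adjusted p under 0.05. Over all 290 miRNAs tested, 3 passed, or 1.03%. At an unadjusted p under 0.05 there was 1 member, miR-30e-3p, against 9.31% of all miRNAs tested, and limma-voom on recovered reads also called 0 of the 10. Here and below a log2 fold change is SE over CON on the log2(RPM + 1) scale. Values of low miRNAs are understated on it. Directions follow the group names of the columns.

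Among the tested members the largest difference was that of miR-30e-3p, a 3p arm from the Nfyc intron. Its mean was 1128 ± 39.2 RPM over the SE libraries and 1465 ± 219 RPM over the CON libraries (n = 3 each), for a log2 fold change of -0.37 with a standard error of 0.17. Its limma adjusted p was 0.528 and its unadjusted p 0.0492. The unadjusted p was 0.119 after median-of-ratios scaling and 0.304 after quantile normalization, where the log2 fold change was -0.26 and -0.15. miR-30a-3p had a mean of 1420 ± 13.9 RPM over the SE libraries and 1717 ± 132 RPM over the CON libraries, for a log2 fold change of -0.27 with a standard error of 0.16 and a limma adjusted p of 0.641. It was at -0.17 and -0.16 with the same 2 scalings. These were the only members over the filter whose SE and CON values did not overlap, both with SE lower, against 13.4% of all miRNAs tested with SE lower and 1.38% with SE higher. Because the sequences of these 2 arms differ by a single base, they may share reads and are not separate evidence. Their sum was 2549 ± 25.7 RPM over the SE libraries and 3182 ± 351 RPM over the CON libraries.

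The remaining members had smaller differences or wider intervals. miR-30a-5p had a log2 fold change of -0.27 with a 95% interval of -0.64 to 0.11, and miR-30e-5p one of -0.21 with an interval of -0.59 to 0.17. Without CON replicate 3 they were at -0.14 and -0.0806, and without SE replicate 1 miR-30e-5p was at -0.35. Without SE replicate 2 they were at -0.17 and -0.13, and without SE replicate 3 miR-30e-5p was at -0.14. miR-30b-5p, at -0.19, had the widest interval of the family, -0.73 to 0.36. Without CON replicate 1 its value was 0.13, so the sign rests on that library. miR-30b-3p stood at -0.22, and at -0.0816 without CON replicate 1 and -0.14 without SE replicate 3. miR-30d-5p stood at -0.04, which became 0.06 when libraries were scaled by median-of-ratios factors and 0.16 after quantile normalization.

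The miR-30c products lay on the other side of 0. miR-30c-5p had 0.07, miR-30c-1-3p 0.04 and miR-30c-2-3p 0.08, with 95% intervals that together ran from -0.42 to 0.55. The sign of miR-30c-5p rests on single libraries: it was at -0.0896 without CON replicate 2, -0.0156 without CON replicate 3, -0.0071 without SE replicate 2 and 0.33 without CON replicate 1. The limma adjusted p of the 8 members other than miR-30e-3p and miR-30a-3p ran from 0.722 to 0.966.

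**Figure D4:**
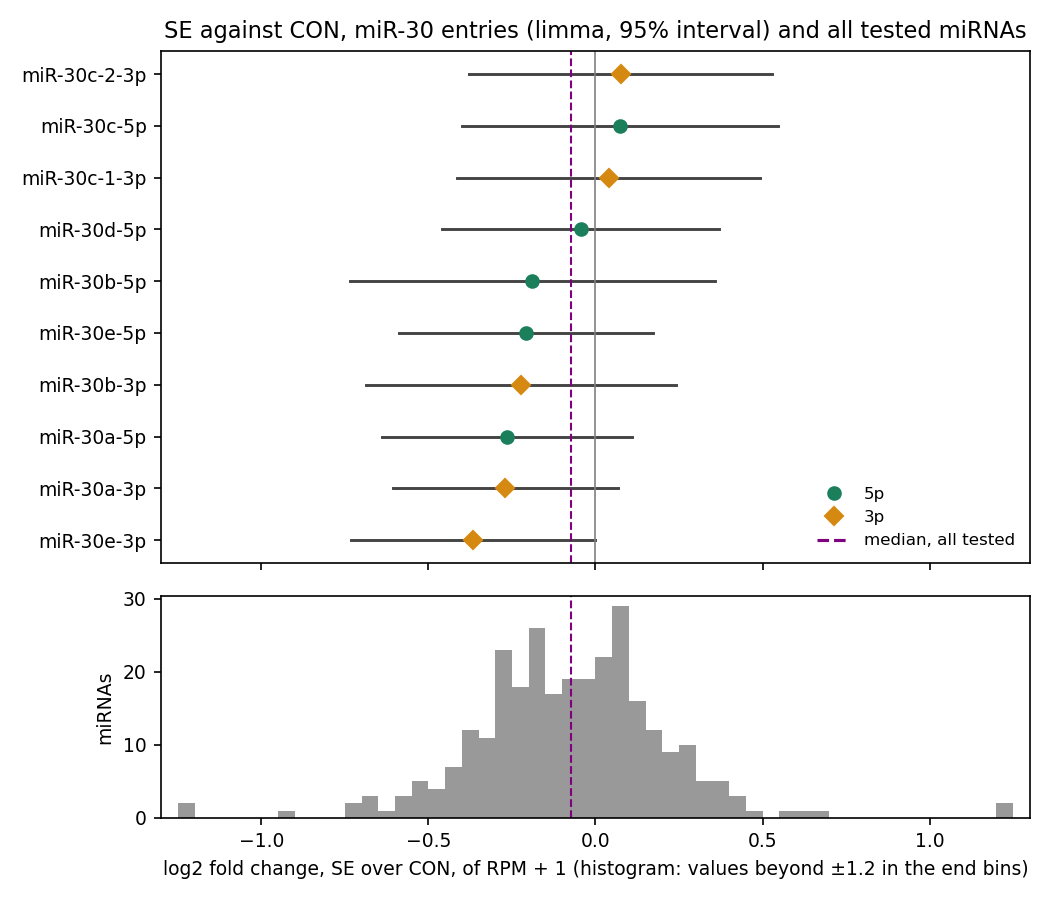
Top, limma log2 fold change of RPM + 1, SE over CON, with its 95% interval for the 10 tested miR-30 members, 5p arms as circles and 3p arms as diamonds. Bottom, the same value for all 290 tested miRNAs, with the dashed line at their median of -0.07. All members lie between -0.37 and 0.08, within the bulk of the histogram.

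As a list, 7 of the 10 tested members had a value below 0, against 59.7% of all miRNAs tested. The median was -0.20 for the family and -0.07 for all 290. With median-of-ratios scaling the median of all miRNAs moved to 0.03 and that of the family to -0.09, with 6 of 10 members below 0. By arm, 3 of 5 tested 3p members and 4 of 5 tested 5p members were below 0, against 63.2% of all 3p entries and 56.1% of all 5p entries tested. miR-30d-3p, which was left out by the filter, had a log2 fold change of -0.65 with a standard error of 0.37 and a limma adjusted p of 0.891 when all 775 miRNAs above 0 were tested.

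The arm ratios did not pass either. Of the 5 miR-30 arm pairs with both arms over the filter, 0 passed limma over all 64 such pairs, of which 1 passed, or 1.56%. At an unadjusted p under 0.05 there were 0 miR-30 pairs, against 9.38% of all pairs. The log2 change of the ratio, SE over CON, was 0.16 for miR-30e, with a 95% interval of -0.32 to 0.63, and 0.004 for miR-30a, with an interval of -0.45 to 0.46. It was 0.03 for miR-30b, 0.03 for miR-30c-1 and -0.002 for miR-30c-2. Their limma adjusted p lay between 0.896 and 0.996. SE and CON ratios overlapped for all 6 miR-30 hairpins, while among all tested pairs 6.25% had every SE ratio above every CON ratio and 4.69% had every SE ratio below.

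The authors' deposited table lists 11 of the 12 members and calls 0 of them at an adjusted p under 0.05, against 1.04% of its 772 miRNAs with an adjusted p. A positive value there goes with a higher level in the CON libraries as put back. In the authors' deposited table miR-30e-3p has a log2 fold change of 0.26 (standard error 0.13), with p = 0.0357 and an adjusted p of 0.862. It is the 1 member there at an unadjusted p under 0.05, against 5.05% of all miRNAs with a p in that table. miR-30a-3p has 0.16 (standard error 0.11) and miR-30d-3p 0.87 (standard error 0.61) in the authors' deposited table, both with an adjusted p of 0.975. 7 members are positive and 4 negative in the authors' deposited table, the negative ones being the 3 miR-30c products and miR-30d-5p. These values share their reads with the fit above and are no independent support.

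Outside the family, the miRNAs whose levels followed the summed 5p arms most closely over the 6 libraries were miR-381-3p (Pearson r = 0.986), miR-20a-5p (0.969), miR-27b-5p (0.954), miR-666-3p (0.938) and miR-28a-5p/28c (0.935), each on log2(RPM + 1). They were the highest of 280 miRNAs over 6 points that share their libraries and scaling, and the values are a description only.

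A list of 9 other miRNAs reported to act on the BDNF transcript was set beside miR-30a-5p. 7 were tested and 1 fell, against 2 of all 290 tested miRNAs that fell. It was miR-155-5p, a product of microglia and other immune cells, with a log2 fold change of -2.02 (standard error 0.21) and a limma adjusted p of 4.36e-06. The others were at -0.40 for miR-1a-3p, -0.37 for miR-191-5p, -0.28 for miR-206-3p, -0.27 for miR-26b-5p, 0.01 for miR-26a-5p and 0.06 for miR-195a-5p, and none of these passed. The median of the list was -0.28, against -0.07 over all miRNAs tested, and miR-30a-5p itself was at -0.27. miR-1a-3p and miR-206-3p are also among the muscle markers above, and the part of muscle in this median was not tested.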

How the data were processed

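The QIAseq miRNA kit was used on column-purified, DNase-treated RNA, per the labels' protocols. The submitters' processing notes name the build mm9 and the tool DESeq2. The aligner and counter are not given in the sources used here. The authors' deposited values are RPM for 1926 miRNAs and, for 775, a base mean (a normalized count signal), a log2 fold change, a Wald score and p-values, copied as they stand.

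Reads were read off the RPM steps, whole within 0.01 reads with the lowest value taken as 2 reads. CON rows were put back by matching 6 times the base mean, less the normalized SE reads, to CON rows. All 687 totals above 0 matched within a relative tolerance of 1e-05. log2 fold changes of CON over SE from the reads put back, over 616 miRNAs, had r = 0.9998 with the authors' deposited log2 fold changes. Those fold changes had picked the miRNAs of SE libraries alone, 62 of which set the SE scaling behind the match. As the base means already fix the CON totals, this r cannot show that each library's value is right. In simulated data 96.8% of 774 miRNAs got their own CON values back.

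limma 3.58.1 (R 4.3.3) was fitted with group as the factor on log2(RPM + 1) for miRNAs, and on log2 arm ratios with 1 RPM added, each with a mean of at least 10 RPM. Scripts were tested on simulated data, and Python 3.11.15 made tables and figures. With the spread set there, the fits called 89.3% of simulated 2-fold changes of miRNAs but 52.5% of those of arm ratios. More miRNAs and pairs were changed in the simulation than were called here, so these rates may be too high for these data. A 2-fold change of a miRNA or of an arm ratio could thus be missed. Alternatives tried were a pseudocount of 0.5 or 5 RPM, a filter of 50 RPM or none, median-of-ratios and quantile scaling, no trend, a replicate block, deposited names and each library left out. limma-voom was added after seeing the data. Members, lists and rules were chosen with earlier results of these data known. Named miRNAs are all members, the 5 most like the summed 5p arms, and the BDNF list.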

Additional observations from a re-analysis of the deposited data

How the results depend on the processing

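0 of the miR-30 members and 0 of the miR-30 arm pairs passed under any alternative run. The count of all miRNAs called was 3, and ran from 3 to 6 with 1 library left out, being 5 without CON replicate 3 and 6 without CON replicate 2. With CON values left under their deposited names it was 0, and the count of all arm pairs called was 0 as well. With a filter of 50 RPM, which left 18 pairs to test, the count of arm pairs was also 0, and it was 1 in all fits without 1 library. The family's share of reads was 3.81% in SE and 4.05% in CON libraries with let-7 left out of the total, and otherwise ran from 0.719% to 0.784% and from 0.846% to 0.917% with 1 library left out.

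Signs turned for values near 0 and for miR-30b-5p, which was at -0.19 in the main fit. For miR-30d-5p the log2 fold change was 0.0597 under median-of-ratios scaling and 0.16 after quantile normalization, and with deposited names miR-30c-1-3p was at -0.0696 and the miR-30e arm ratio at -0.0402. The arm ratio of miR-30c-2 was 0.00058 with a pseudocount of 5 RPM and 0.15 with quantile normalization, where that of miR-30b was -0.0084. With 1 library left out, values ran from -0.40 to 0.13 for miR-30b-5p, -0.0896 to 0.33 for miR-30c-5p, -0.11 to 0.14 for miR-30c-1-3p, -0.0533 to 0.19 for miR-30c-2-3p and -0.22 to 0.10 for miR-30d-5p. Arm ratios ran from -0.11 to 0.12 for miR-30a, -0.14 to 0.24 for miR-30b, -0.20 to 0.21 for miR-30c-1 and -0.28 to 0.38 for miR-30c-2. The cause was not tested. The miR-30e arm ratio ran from 0.02 to 0.26, miR-30e-3p from -0.49 to -0.28, miR-30a-3p from -0.33 to -0.22, miR-30a-5p from -0.35 to -0.14, miR-30e-5p from -0.35 to -0.0806 and miR-30b-3p from -0.32 to -0.0816. These 5 miRNAs stayed below 0 under all other alternatives too, but lay nearer to 0 after quantile normalization, at -0.15, -0.16, -0.0813, -0.039 and -0.096 in that order, and miR-30e-3p was at -0.17 with deposited names. The unadjusted p of miR-30e-3p was above 0.05 with a pseudocount of 5 RPM, either scaling, no trend, the replicate block, deposited names and every library left out except CON replicate 2.

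With the replicate number as a block, 3 miRNAs and 1 arm pair were called, as without it, and miR-30e-3p had a limma adjusted p of 0.700. Same-numbered libraries had correlations of -0.42, -0.25 and 0.04 in their deviations from group means over 290 miRNAs. Those of different numbers ran from -0.20 to 0.42. With 3 libraries per group these values are tied to each other and cannot show whether libraries were paired. The planned quasi-likelihood count test was not run. In its place limma-voom on the recovered reads called 3 miRNAs and 0 members. Depth limits only miR-30d-3p and miR-30f.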
